A study of Homo sapiens with 32 samples.

Results

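The miR-34 and miR-449 family comprised 6 microRNA (miRNA) precursors, mir-34a, mir-34b, mir-34c, mir-449a, mir-449b and mir-449c, among the 1513 precursor names of the count table. The members were chosen by their names, with earlier results of these data known, in which mir-449c already stood among the miRNAs most lowered by ERH knockdown. The knockdown values of mir-449c are therefore given as a description, without a test. All 6 names were found.

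The data came from clones of 293T, a line derived from human embryonic kidney. There were 8 clones, and each is 1 clonal line that counts as 1 replicate. Wild-type clones 52, 55, 57 and 67 carried unedited DGCR8, and clones 30, 34, 42 and 43 carried DGCR8 delta103-126Q, made by prime editing to remove the reported binding site of ERH. Every clone was transfected transiently with 4 shRNA vectors, of which 2 were non-targeting (control shRNA 1 and 2) and 2 targeted ERH (ERH shRNA 1 and 2), then selected with puromycin and sorted for the vectors' fluorescent marker on day 5. This gave 32 small RNA libraries, and the counts of the 2 vectors of an arm were summed in each clone, so that a group is 4 clones of 1 genotype in 1 arm.

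Primary miRNA transcripts are cut in the nucleus by the Microprocessor, made of DGCR8 and the nuclease DROSHA, and ERH is a small nuclear protein that binds DGCR8. The miR-34 genes are known as direct transcriptional targets of p53 and restrain the cell cycle. The miR-449 genes lie in CDC20B, are linked to E2F1 and are abundant in multiciliated cells, where they act with the miR-34 genes, and both groups bind similar target sites because their 5′ ends are alike.

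The mature 5′ products of the family are miR-34a-5p, miR-34b-5p, miR-34c-5p, miR-449a, miR-449b-5p and miR-449c-5p. The RefSeq table (GRCh38.p14) matched 5 of these 6, and they are shown because the seed, bases 2 to 8 in capitals, is what unites the family. The first 3 share 1 seed and the last 2 share another.
miR-34a-5p: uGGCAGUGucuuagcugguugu
miR-449a: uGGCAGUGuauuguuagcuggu
miR-449b-5p: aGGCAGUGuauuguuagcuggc
miR-34b-5p: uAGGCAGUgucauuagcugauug
miR-449c-5p: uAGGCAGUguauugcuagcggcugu
The seed of miR-34b-5p and miR-449c-5p holds the same letters moved by 1 base, since their mature strand starts 1 base earlier. The 7 letters GGCAGUG stood in all 6 hairpins of the family and in 34 of the 1562 hairpins of the RefSeq table (2.18%), searched on the hairpin strand only. miR-449a and miR-449b-5p shared an unbroken run of 20 bases, so that a read trimmed at its ends could be assigned to either, and the split between these 2 rows is uncertain.

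The 6 hairpins lie at 3 places in the genome (GRCh38, GENCODE and RefSeq positions alike). mir-34a is alone on the minus strand at chr1:9151668-9151777, in an exon of the long noncoding RNA gene MIR34AHG, and no other hairpin lies within 10 kb. mir-34b at chr11:111512938-111513021 and mir-34c at chr11:111513439-111513515 are on the plus strand with 417 bases between them. The miR-449 hairpins lie on the minus strand within an intron of CDC20B, a gene related to the mitotic activator CDC20. In the direction of transcription mir-449c at chr5:55172262-55172353 comes first, mir-449b at chr5:55170646-55170742 follows after 1519 bases, and mir-449a at chr5:55170532-55170622 follows after another 23 bases. The 3 hairpins of this cluster are shown since their rows differed most under knockdown, with the letters GGCAGUG in capitals.
mir-449c: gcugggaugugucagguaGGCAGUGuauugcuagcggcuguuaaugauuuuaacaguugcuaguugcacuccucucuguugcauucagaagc
mir-449b: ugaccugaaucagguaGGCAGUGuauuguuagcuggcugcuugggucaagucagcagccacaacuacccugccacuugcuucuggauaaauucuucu
mir-449a: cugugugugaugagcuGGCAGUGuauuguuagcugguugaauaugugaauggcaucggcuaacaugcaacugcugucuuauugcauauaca
Folding with RNAfold gave mir-449c the lowest predicted energy per base of the 6, at -0.485 kcal/mol. The value was -0.422 for mir-449a and -0.368 for mir-449b. For the miR-34 hairpins it was -0.429 for mir-34a, -0.390 for mir-34b and -0.364 for mir-34c.

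Library depth ran from 1318923 to 6222790 miRNA counts. Cell identity was read from miRNA markers. The epithelial markers mir-141 (46.3 to 192 CPM, counts relative to library size, over the 16 sums) and mir-200c (23.2 to 87.5 CPM) were present, while mir-200b and mir-429 did not exceed 3.09 and 4.03 CPM and reached 0. The blood markers mir-142, mir-223 and mir-150 together reached 2395 CPM in 1 deletion clone under control shRNAs, against 107 to 407 CPM in wild-type sums. The liver marker mir-122 lay between 72.1 and 622 CPM, the neural marker mir-124 did not exceed 19.97 CPM, and of the muscle markers mir-1 lay between 8.77 and 121 CPM, mir-133a between 3.17 and 47.8 CPM and mir-206 at no more than 0.894 CPM.

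Levels are given as CPM after TMM scaling. The mature RNAs printed above are 22 to 25 bases long, so length differs little between these members. The yield of library preparation may differ by sequence, so comparisons of level between members are approximate. mir-34a supplied 95.8% of all family counts, with a mean of 3474 CPM over the 16 sums and rank 50 of the 1513 names. mir-449a followed with a mean level of 82.8 CPM, then mir-34c with 26.5, mir-449c with 24.5, mir-449b with 10.95 and mir-34b with 5.66 CPM. The ranges of mir-34c (5.25 to 71.3 CPM) and mir-449c (6.69 to 59.1 CPM) covered each other almost wholly, so that these neighbours did not differ beyond their spread. The ranges of mir-449b (4.26 to 21.2 CPM) and mir-34b (0.984 to 14.7 CPM) also overlapped. Counts behind the low rows were small: mir-34b had a median of 7.5 counts per library and was at 0 in 1 of 32 libraries, and mir-449b had a median of 22.5.

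**Figure D1:**
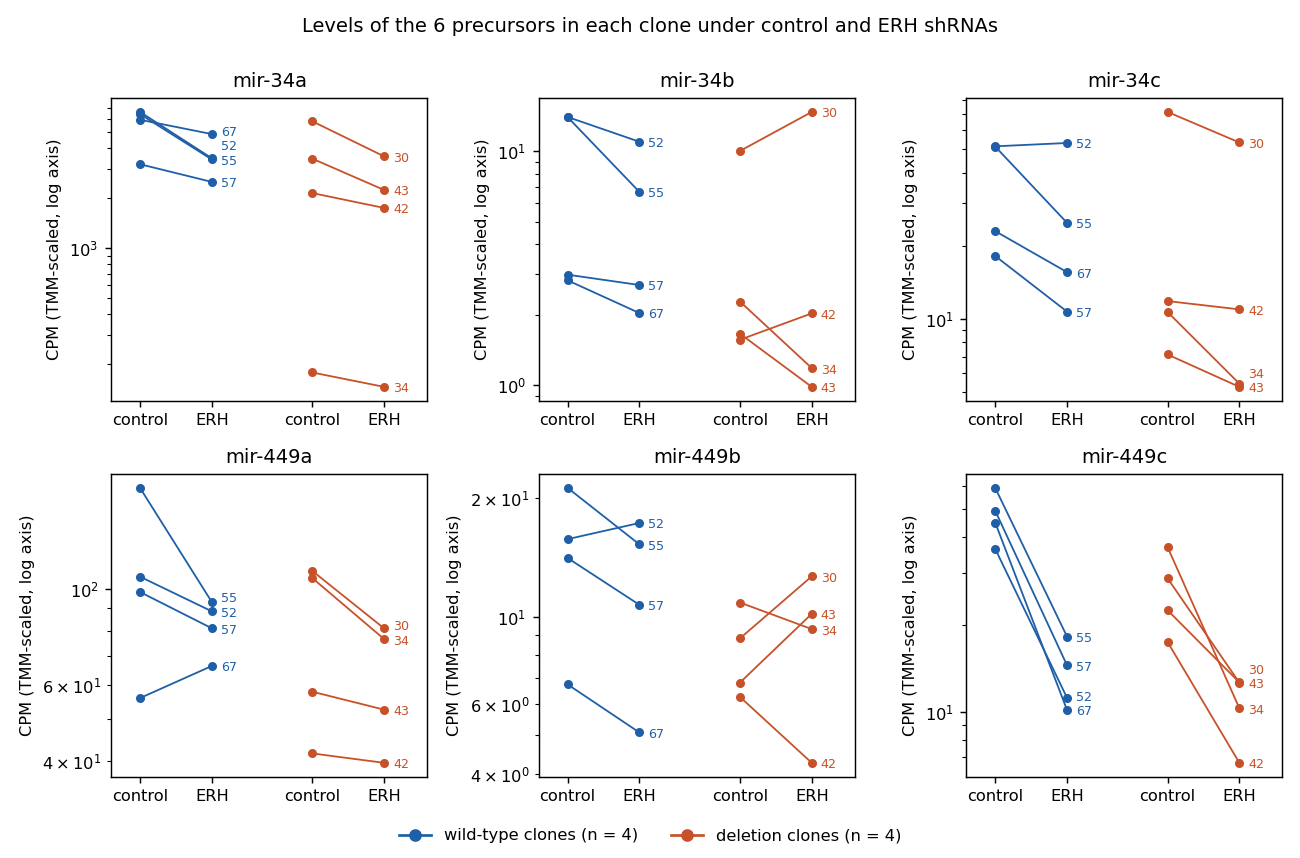
CPM (TMM-scaled, log axis) of each precursor, 1 panel per precursor, with a line from the control to the ERH sum of each clone and clone numbers at the right end. mir-34a of clone 34 lies at 178 and 146 CPM, below every other clone, and all 8 mir-449c lines fall.

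mir-34a, the member most often studied as a p53 target, split the deletion clones. Under control shRNAs the wild-type clones held 6595 CPM (clone 52), 6399 (clone 55), 3196 (clone 57) and 5917 CPM (clone 67) of mir-34a. The deletion clones held 5790 CPM (clone 30), 178 (clone 34), 2142 (clone 42) and 3450 CPM (clone 43). Clone 34 lay far below all others, clones 30 and 43 lay within the wild-type range, and clone 42 below it.

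Under ERH shRNAs the mir-34a levels of the wild-type clones were 3470 CPM (clone 52), 3413 (clone 55), 2500 (clone 57) and 4852 CPM (clone 67). Those of the deletion clones were 3561 CPM (clone 30), 146 (clone 34), 1743 (clone 42) and 2235 CPM (clone 43). Clone 34 was again alone at the bottom. Its level was low with each vector, at 179 and 172 CPM with the control shRNAs and 137 and 168 CPM with the ERH shRNAs, from 407 to 514 counts per library. In the other 28 libraries mir-34a lay at 1296 CPM or more.

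The gap below the next clone was 12-fold under control shRNAs and 11.9-fold under ERH shRNAs. Over the 314 miRNAs that averaged 100 counts or more, the gap between the lowest clone and the next (3.58 and 3.57 on the log2 scale) ranked 2 and 1, against a median gap of 0.23 in both arms. mir-34a made up 51.7% and 58.7% of the family's CPM in the sums of clone 34, and 94.6% or more in the other 14 sums. The miR-449 members of clone 34 were not low in the same way: mir-449a stood at 106 and 76.4 CPM there, between 39.5 and 171 CPM elsewhere. Its mir-449b (10.9 and 9.30 CPM) and mir-449c (37.0 and 10.3 CPM) also lay within the ranges of the other clones. So did its mir-34c (10.7 and 5.41 CPM) and mir-34b (2.28 and 1.18 CPM). Both of these lay below the medians of the other sums, 20.6 CPM for mir-34c and 2.89 CPM for mir-34b. Clones 30, 42 and 43, labelled with the same deletion, held 5790, 2142 and 3450 CPM of mir-34a under control shRNAs. Clone 34 is 1 clonal line, and the source of its low mir-34a level was not tested.

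**Figure D2:**
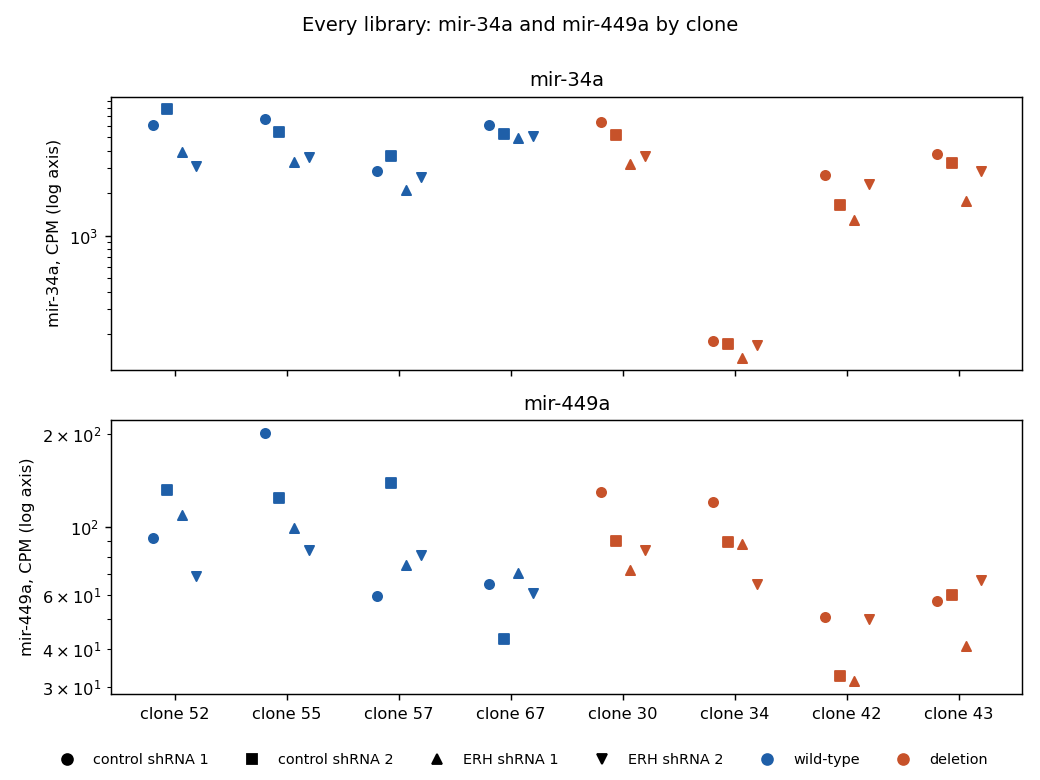
CPM (log axes) of mir-34a and mir-449a in each of the 32 libraries, by clone, with a symbol per vector. The 4 libraries of clone 34 hold 137 to 179 CPM of mir-34a, while its mir-449a is not set apart.

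The paired hairpins mir-34b and mir-34c also divided the clones, but along another line. Control sums of mir-34c held 51.4 CPM in clone 52, 51.3 in clone 55, 18.2 in clone 57 and 23.0 in clone 67 among the wild-type clones. Among the deletion clones they held 71.3 CPM in clone 30, 10.7 in clone 34, 11.8 in clone 42 and 7.14 in clone 43. Clones 30, 52 and 55 were thus high whatever their genotype. Under ERH shRNAs mir-34c stood at 53.1, 24.9, 10.7 and 15.6 CPM in clones 52, 55, 57 and 67, and at 53.3, 5.41, 10.9 and 5.25 CPM in clones 30, 34, 42 and 43.

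mir-34b, the scarcer hairpin of the pair, had the same high clones. Its control levels were 13.98, 13.97, 2.97 and 2.81 CPM in clones 52, 55, 57 and 67, and 10.01, 2.28, 1.56 and 1.66 CPM in clones 30, 34, 42 and 43. Under ERH shRNAs these became 10.96, 6.69, 2.68 and 2.03 CPM in the wild-type clones and 14.7, 1.18, 2.03 and 0.984 CPM in the deletion clones. Over the 16 sums, log2 CPM of mir-34b and mir-34c had a Pearson r of 0.95, a description over sums that share clones and, in pairs, their depth. mir-34a correlated less with mir-34b (r of 0.52) and mir-34c (0.60).

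The summed blood markers ranked in the same order as mir-34c over the libraries of clone 30. Its mir-34c levels of 45.8 and 93.2 CPM with control shRNA 1 and 2, and of 34.9 and 65.7 CPM with ERH shRNA 1 and 2, stood beside summed blood marker levels of 937, 3681, 881 and 1282 CPM. The sum was mostly mir-142. mir-150 alone did not follow mir-34c, at 10.8, 1.52, 2.45 and 2.79 CPM in the same order. The other 28 libraries held 89.2 to 978 CPM of the summed markers, with a median of 254. The highest of them, control shRNA 2 of clone 34, held 9.71 CPM of mir-34c. The part of these markers in the level of clone 30 was not tested. In the high wild-type clones 52 and 55 the summed blood markers were 217 to 566 CPM.

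Members of the miR-449 cluster varied less between clones. Control levels of mir-449a were 107, 171, 98.3 and 55.8 CPM in clones 52, 55, 57 and 67, and 110, 106, 41.6 and 57.8 CPM in clones 30, 34, 42 and 43. Under ERH shRNAs they were 88.6, 93.1, 81.0 and 66.3 CPM in the wild-type clones and 80.9, 76.4, 39.5 and 52.5 CPM in the deletion clones. The 4 groups overlapped, with clone 55 highest in both arms and clone 42 lowest in both arms.

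For mir-449b the control levels were 15.7, 21.2, 14.1 and 6.73 CPM in clones 52, 55, 57 and 67 and 8.81, 10.9, 6.26 and 6.80 CPM in clones 30, 34, 42 and 43. The levels under ERH shRNAs were 17.3, 15.3, 10.7 and 5.08 CPM and 12.7, 9.30, 4.26 and 10.2 CPM in the same order. Log2 CPM of mir-449a and mir-449b, which share most of their mature sequence, had an r of 0.81 over the 16 sums, again as a description. mir-449c correlated less with both (0.55 with mir-449a and 0.43 with mir-449b). The sums pool the control and ERH arms, so these values take in the fall of mir-449c under knockdown.

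mir-449c behaved differently from its cluster partners under knockdown. Its control levels were 36.5, 59.1, 49.3 and 44.9 CPM in clones 52, 55, 57 and 67, and 22.4, 37.0, 17.4 and 28.9 CPM in clones 30, 34, 42 and 43. With ERH shRNAs it stood at 11.2, 18.2, 14.5 and 10.2 CPM in the wild-type clones and at 12.7, 10.3, 6.69 and 12.6 CPM in the deletion clones. Within each genotype the 2 arms did not overlap, and the wild-type and deletion clones overlapped in both arms.

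The first comparison asked what ERH knockdown does to the family. In all 8 clones mir-34a was lower with ERH shRNAs on the TMM scale, by 0.55 ± 0.11 on the log2 scale (SE, 8 clones; adjusted p = 0.000542, edgeR quasi-likelihood test). Changes of single clones ran from -0.93 to -0.29. mir-34c was lower in 7 of 8 clones and its fitted log2 change was -0.53 ± 0.17 (SE; adjusted p = 0.0216, edgeR). mir-449c, given as a description, had a log2 fold change of -1.57 ± 0.18 (SE), with clones between -2.10 and -0.81 and lower levels in 8 of 8.

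The remaining members did not pass the test. Log2 fold changes were -0.29 ± 0.14 for mir-449a (SE; adjusted p = 0.119, edgeR), -0.33 ± 0.28 for mir-34b (adjusted p = 0.377) and -0.09 ± 0.21 for mir-449b (adjusted p = 0.782). mir-449a was nevertheless lower in 7 of 8 clones, mir-34b in 6 and mir-449b in 5. Of the 5 members other than mir-449c, 2 were called lower and 0 higher, beside 16.5% of the 667 tested miRNAs called lower and 20.1% called higher. Counting mir-449c, as a description, the median log2 fold change of the 6 members was -0.43, and that of all tested miRNAs 0.06. Without mir-449c, the middle value of the other 5 members was the -0.33 of mir-34b.

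How low the family stood under knockdown depended on the scaling. Scaling by the spike-in RNAs moved the median of all miRNAs to 0.52 and the calls from 134 higher and 110 lower to 233 higher and 22 lower. The change of mir-34a was then -0.09 (adjusted p = 0.752, edgeR), that of mir-34c -0.08 (adjusted p = 0.783) and that of mir-449c -1.11, while mir-34b (0.08), mir-449a (0.16) and mir-449b (0.35) turned positive. Scaled by the total of miRNA counts, which gave 210 higher and 36 lower calls and a median of 0.33, mir-34a changed by -0.28 (adjusted p = 0.0285), mir-34c by -0.25 (adjusted p = 0.297) and mir-449c by -1.30. Relative to the spike-ins, mir-34a was lower in 4 of 8 clones and mir-449c in 8 of 8.

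**Figure D3:**
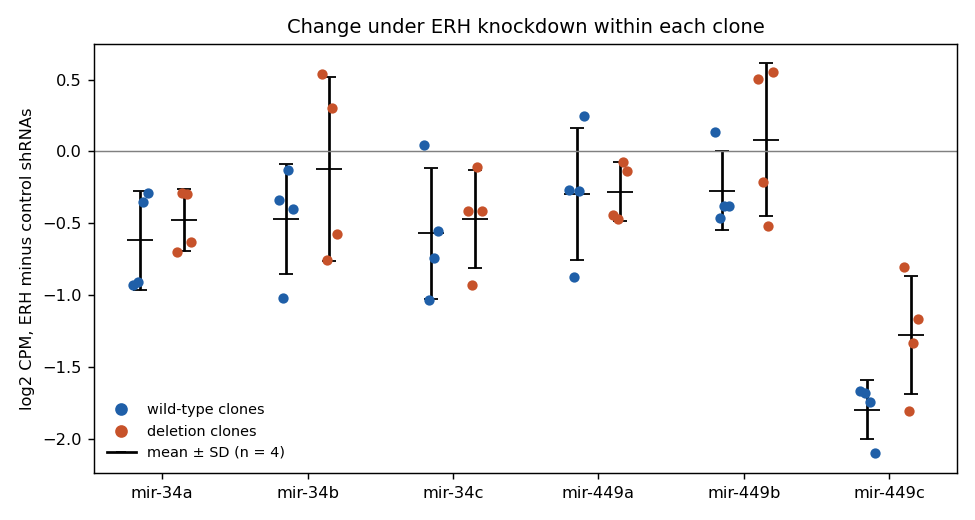
Log2 change of CPM from the control to the ERH sum within each clone (points), with the mean ± SD of the 4 clones of a genotype. All mir-34a points lie between -0.93 and -0.29, and all mir-449c points at -0.81 or below.

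The 2 ERH vectors gave unequal values for mir-34a and mir-34c and near values for mir-449c. With ERH shRNA 1 against control shRNA 1, mir-34a changed by -0.74 (adjusted p = 0.000462, edgeR) and mir-34c by -0.75 (adjusted p = 0.0166). With the second pair of vectors the values were -0.31 (adjusted p = 0.225) and -0.25 (adjusted p = 0.467). mir-449c changed by -1.52 and -1.63 with the 2 pairs. The difference between the vector pairs was not tested.

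The mir-34c call was lost in 8 of 19 alternatives, including both other scalings, the second vector pair and omission of a clone or library. Without clone 55 its log2 fold change was -0.44 (adjusted p = 0.0868, edgeR), and without the control shRNA 2 library of clone 30, the library with the most blood markers, it was -0.43 (adjusted p = 0.0755). mir-449a crossed the threshold without clone 67, the 1 clone in which it was higher, at -0.39 (adjusted p = 0.0406), and also with DESeq2 (-0.35, adjusted p = 0.0395) and with the GC correction (-0.35, adjusted p = 0.0353). mir-34a stayed past the threshold in each of the 8 fits that left out 1 clone, with -0.61 to -0.49.

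Within the genotypes, mir-34a was lower in the 4 wild-type clones by 0.59 ± 0.18 on the log2 scale (SE; adjusted p = 0.0197, edgeR) and in the 4 deletion clones by 0.49 ± 0.12 (SE; adjusted p = 0.0270). mir-34c had log2 fold changes of -0.55 (adjusted p = 0.0894) and -0.48 (adjusted p = 0.119). In wild-type clones it passed in 4 of 14 alternatives, namely DESeq2 (-0.68, adjusted p = 0.0329), unsummed libraries (-0.52, adjusted p = 0.0313), ERH shRNA 1 alone (-0.87, adjusted p = 0.0347) and the GC correction (-0.84, adjusted p = 0.0132). The unsummed fit counts the 2 libraries of an arm in 1 clone as separate samples. mir-449c, as a description, changed by -1.79 ± 0.24 in wild-type and by -1.32 ± 0.20 in deletion clones. Of the 5 members other than mir-449c, 1 was called lower in each genotype, beside 10.4% of 613 tested miRNAs in wild-type and 6% of 633 in deletion clones.

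These calls of mir-34a were not firm. In wild-type clones the change was -0.51 without clone 55 (adjusted p = 0.126, edgeR) and 0.02 with spike-in scaling (adjusted p = 0.962). In deletion clones it was -0.40, -0.56 and -0.44 without clones 30, 42 and 43 (adjusted p = 0.135, 0.0524 and 0.0954).

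The knockdown change was tested for a difference between genotypes (interaction) in the members other than mir-449c, and none passed. This test called 0% of the 667 miRNAs with edgeR (127 at an unadjusted p under 0.05, and 16 called with DESeq2). The estimate, deletion minus wild-type, was 0.18 ± 0.20 for mir-34a (SE; adjusted p = 0.680), 0.13 ± 0.31 for mir-34c (adjusted p = 0.862) and 0.06 ± 0.25 for mir-449a (adjusted p = 0.945). It was 0.51 ± 0.52 for mir-34b (adjusted p = 0.659) and 0.43 ± 0.37 for mir-449b (adjusted p = 0.599). For mir-449c, as a description, it was 0.56 ± 0.29. The sign turned negative with spike-in scaling for mir-34a (-0.22), mir-34c (-0.27) and mir-449a (-0.34). As background, control shRNA 2 against control shRNA 1 called 0% of 571 miRNAs (48 at an unadjusted p under 0.05), and the members changed by between -0.29 (mir-449b) and 0.02 (mir-34c).

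The position of mir-449c allowed a comparison inside 1 cluster, free of any scaling. Whether the hairpins of the cluster share 1 primary transcript in these cells was not examined. The log2 ratio of mir-449c to mir-449a counts was -1.55, -1.53, -0.99 and -0.31 in the control sums of clones 52, 55, 57 and 67, and -2.98, -2.36, -2.48 and -2.70 in their ERH sums. In clones 30, 34, 42 and 43 it went from -2.29, -1.52, -1.25 and -1 to -2.68, -2.89, -2.56 and -2.06. It was lower with ERH shRNAs in 8 of 8 clones.

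The ratio changed by -1.28 ± 0.58 on the log2 scale (SD, n = 8 clones), by -1.53 ± 0.65 in the wild-type and -1.03 ± 0.45 in the deletion clones (SD, n = 4). These knockdown ratios are a description, like the level of mir-449c. Clone 30 had the smallest change (-0.38) and clone 67 the largest (-2.39). Single vectors gave -1.17 ± 0.93 for the first pair, lower in 7 of 8 clones, and -1.499 ± 0.95 for the second, lower in 8 of 8. Between the 2 control shRNAs the same ratio differed by -0.11 ± 0.84 (SD, n = 8).

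mir-449b, which lies next to mir-449a, showed no detectable change against it. The ratio of mir-449b to mir-449a changed by 0.19 ± 0.56 with ERH shRNAs (SD, n = 8; p = 0.391 in a two-sided exact sign-flip permutation test, adjusted to 0.816 over 8 ratio tests) and was lower in 3 of 8 clones. That pair also shares the most sequence, so reads moved between the rows would leave the ratio uncertain. The sum of the miR-449 rows relative to mir-34a changed by 0.02 ± 0.31 (SD, n = 8), with 5 of 8 clones lower, a description since the sum holds mir-449c.

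**Figure D4:**
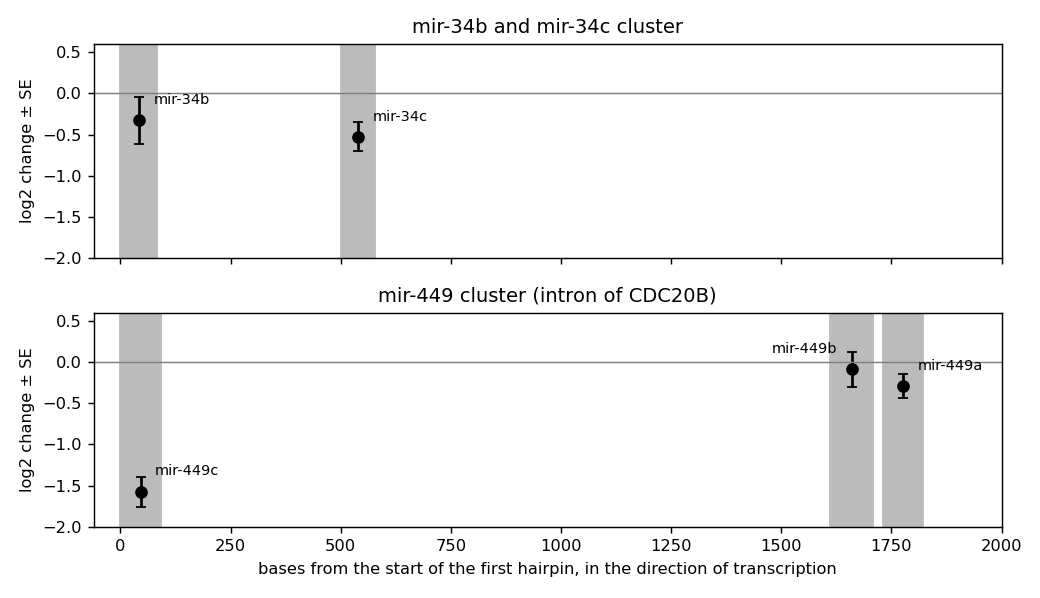
Hairpins of the mir-34b and mir-34c cluster and of the miR-449 cluster (grey bars, bases from the start of the first hairpin, to scale) with the fitted log2 change under ERH knockdown in all clones (points, ± SE). mir-449c, the first hairpin of its cluster in the direction of transcription, stands at -1.57, and mir-449b and mir-449a at -0.09 and -0.29.

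**Figure D5:**
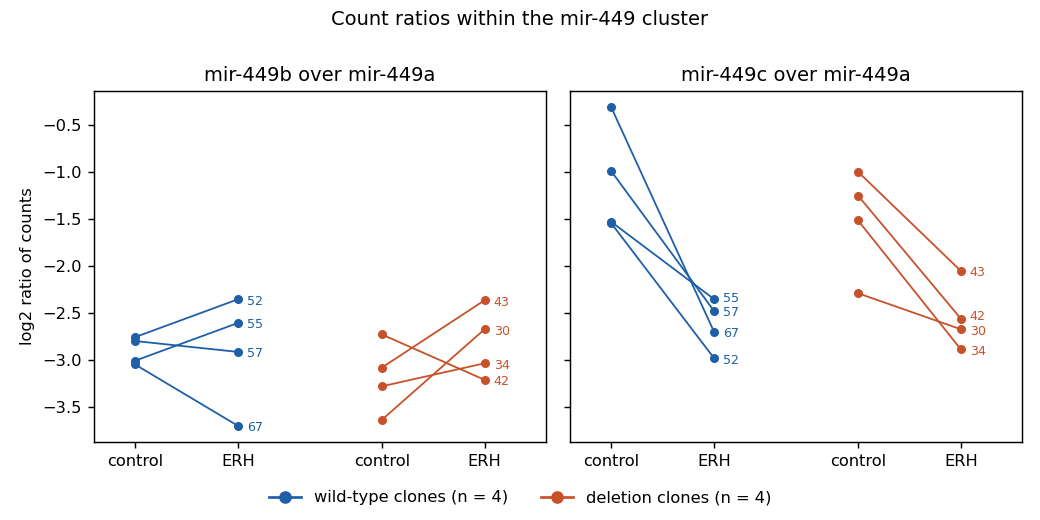
Log2 ratios of counts of mir-449b (left) and mir-449c (right) to mir-449a in each clone, from the control to the ERH sum. The right panel falls in all 8 clones, by 1.28 on average, and the left panel falls in 3.

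The second comparison asked what the deletion in DGCR8 does to the family while ERH is present. With control shRNAs no member passed the test, although all 6 estimates were negative on the TMM scale, with a median of -0.83 against -0.03 for all 536 tested miRNAs. Of these miRNAs 18.8% were called higher and 7.09% lower. mir-449c, with 47.4 ± 9.43 CPM in wild-type and 26.4 ± 8.44 CPM in deletion clones (SD, n = 4), came nearest, at -0.83 ± 0.31 (SE; adjusted p = 0.0650, edgeR). DESeq2 called it at -0.91 (adjusted p = 0.0160). The fit on unsummed libraries called it at -0.84 (adjusted p = 0.00485), but there libraries of 1 clone count as separate samples. The estimate was -0.38 with spike-in scaling, where the median of all miRNAs was 0.42 and the calls were 134 higher and 0 lower.

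mir-449b had 14.4 ± 5.98 CPM in wild-type and 8.18 ± 2.10 CPM in deletion clones (SD, n = 4), and the fitted log2 change was -0.83 ± 0.39 (SE; adjusted p = 0.127, edgeR). It passed with unsummed libraries, at -0.86 (adjusted p = 0.0285), where libraries of 1 clone count as separate samples. For mir-449a the change was -0.47 ± 0.39 (adjusted p = 0.385), and it turned to 0.03 with spike-in scaling. mir-34a had 5527 ± 1580 CPM in wild-type and 2890 ± 2355 CPM in deletion clones, a change of -0.93 ± 0.65 (SE; adjusted p = 0.304). Without clone 34 this became -0.54 (adjusted p = 0.289), and without clone 30 it became -1.41 (adjusted p = 0.146).

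For the mir-34b and mir-34c pair the genotype comparison turned on clone 30. With all clones the log2 fold changes were -1.18 ± 0.70 for mir-34b (SE; adjusted p = 0.222, edgeR) and -0.56 ± 0.65 for mir-34c (adjusted p = 0.550), the second turning to 0.12 with spike-in scaling. Without clone 30 they were -2.14 (adjusted p = 0.0419) and -1.81 (adjusted p = 0.0171). Leaving out only its control shRNA 2 library gave -1.67 (adjusted p = 0.0762) and -1.02 (adjusted p = 0.182).

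Between the deletion and wild-type clones under ERH shRNAs, edgeR called none of the 6 members and 0% of 569 miRNAs (87 at an unadjusted p under 0.05, 8 called with DESeq2). Estimates were -0.87 ± 0.61 for mir-34a (SE; adjusted p = 0.511), -0.20 ± 0.82 for mir-34b (adjusted p = 0.911) and -0.43 ± 0.71 for mir-34c (adjusted p = 0.779). They were -0.37 ± 0.27 for mir-449a (adjusted p = 0.516), -0.36 ± 0.42 for mir-449b (adjusted p = 0.675) and -0.33 ± 0.33 for mir-449c (adjusted p = 0.628). Whether these differ from the estimates under control shRNAs is what the interaction test addressed, for the members other than mir-449c. The knockdown and deletion comparisons share the wild-type control libraries, so their values are given side by side only.

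No difference of the cluster ratios between genotypes was detected. Under control shRNAs the log2 ratio of mir-449c to mir-449a was -1.10 ± 0.58 in wild-type and -1.52 ± 0.56 in deletion clones (SD, n = 4; p = 0.429 in a two-sided exact permutation test, adjusted to 0.816). Under ERH shRNAs it was -2.63 ± 0.28 and -2.55 ± 0.35 (p = 0.714, adjusted p = 0.816, the same exact test). The smallest p that 4 against 4 clones allow is 0.0286.

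Other miRNAs linked to p53 or E2F were set beside the family, from lists chosen with earlier results known. The activity of p53 and E2F in these cells was not measured here. Of 11 tested miRNAs linked to p53, 6 were lower and 0 higher under knockdown in all clones on the TMM scale, beside 16.5% lower and 20.1% higher of all 667 tested (median log2 fold change -0.35, against 0.06 for all miRNAs). Within the genotypes 3 of 10 were called lower in wild-type clones, beside 10.4% of all 613 tested. In deletion clones 3 of 10 were called lower, beside 6% of all 633 tested. The 6 were mir-192 (-1.95), mir-15a (-1.75), mir-29a (-0.58), mir-22 (-0.47), mir-194 (-0.39) and mir-16 (-0.26). mir-15a and mir-16 are known to target cyclins.

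Of 13 miRNAs linked to E2F, 8 were lower and 0 higher in the same comparison, beside the same 16.5% and 20.1% (median -0.29, against 0.06). Within the genotypes 3 of 13 were called lower in wild-type clones, beside 10.4% of all 613 tested. In deletion clones 3 of 13 were called lower, beside 6% of all 633 tested. The largest changes were those of mir-19a (-1.21) and mir-15b (-1.04), followed by mir-19b (-0.42), let-7i (-0.39), mir-20a (-0.30), mir-17 (-0.30), mir-93 (-0.26) and mir-16 (-0.26), which is on both lists. mir-17, mir-19a and mir-20a are oncogenic hairpins of the miR-17-92 cluster. Under the deletion with control shRNAs, 2 of 10 tested p53-linked miRNAs were lower, mir-107 (-0.56) and mir-16 (-0.47), and mir-605, which is known to act on the p53 inhibitor MDM2, was higher (1.99), beside 7.09% lower and 18.8% higher of all 536 tested. Of the E2F-linked miRNAs 4 of 13 were lower, mir-15b (-0.94), mir-92a (-0.65), mir-93 (-0.59) and mir-16 (-0.47). Under ERH shRNAs the deletion comparison called 0 of 10 and 0 of 13 (edgeR), as it called 0 of 569 miRNAs in all.

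The miRNAs outside the family with the most similar profile were ranked by Pearson r of log2 CPM over the 16 sums, among 362 with a mean of at least 10 CPM, as a description over sums that share clones. mir-34a was nearest to mir-204 (0.78), mir-27a (0.78) and mir-4485 (0.76). mir-34b and mir-34c shared their nearest pair, mir-146b (0.77 and 0.83) and mir-27a (0.74 and 0.79), followed by mir-497 (0.73) for mir-34b and mir-141 (0.79) for mir-34c. mir-449a was nearest to mir-146a (0.84), let-7c (0.77) and mir-129 (0.75), and mir-449b to mir-129 (0.75), mir-378d (0.73) and mir-378c (0.68). mir-449c had other neighbours, mir-181b (0.87), mir-217 (0.85) and mir-192 (0.84), the last of which was among the miRNAs called lower under knockdown.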

How the data were processed

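Small RNA libraries were made with the QIAseq miRNA kit from 400 ng of total RNA to which 4 spike-in RNAs were added, 100 ng of the mixture being used, per the labels' protocols. The deposited table holds whole read counts per precursor and library, per the file headers. SAMtools is named in the submitters' processing notes. The aligner, annotation, strand, genome build and use of molecular identifiers are not given in the sources used here; if identifiers were not used, counting error is larger than the counts imply. Each row holds both arms of a hairpin, and 0 columns lacked a sample. The knockdown and genotype labels were not checked against ERH mRNA or the edited DGCR8 locus, which were not analysed here. No library was a copy of another (lowest chi-square per degree of freedom 75.4, over 48 within-group pairs).

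The members and lists were chosen with earlier results of these data known. Named miRNAs are the 6 members, for each the 3 most similar miRNAs, and the members of the 2 lists past the threshold. Counts of the 2 vectors of an arm were summed per clone, and the clone was the replicate. The p-values of the deletion comparisons thus measure the spread between clonal lines. Those of knockdown and interaction measure the spread of the changes within clones. edgeR 4.0.16 in R 4.3.3 (filterByExpr, TMM scaling over miRNA rows, quasi-likelihood test) was fitted on the whole table, with the clone as a block for knockdown and interaction, and p-values adjusted by Benjamini-Hochberg were called at 0.05. The labels name the clone of every vector, which pairs the arms, and the 2 sums of a clone deviated together from their group means (r of 0.42 to 0.86 over 314 miRNAs). CPM were TMM-scaled, and log2 CPM used a prior count of 2. Log2 count ratios needed at least 10 counts in every sum, which left out mir-34b over mir-34c. They were tested by exact permutation (256 sign flips or 70 arrangements, smallest p 0.00781 and 0.0286). Hairpins were folded with RNAfold 2.7.2 and placed with GENCODE release 29. The fits were tested on simulated data.

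Alternatives were DESeq2 1.42.0, spike-in or total miRNA scaling, no filter on low counts or a stricter one (mean of 100 counts), unsummed libraries, single vectors, a GC correction (GC content known for 97.3% of rows), no block, leaving out each clone and, added after seeing the data, leaving out the control shRNA 2 library of clone 30.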

Additional observations from a re-analysis of the deposited data

Results flagged for a closer look

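Several values stood far from the other 3 clones of their group, measured as the gap to the nearest clone over the range of the group. Of 36 groups of 4 clones tested, 6 were flagged. Chance flags about 1 in 20 groups if the values are normally distributed, which was not checked. Levels were taken as CPM on the linear scale, so this rate may not hold for them. In the deletion clones, clone 30 was the highest for mir-34b under control (10.01 CPM) and ERH shRNAs (14.7 CPM), and for mir-34c under control (71.3 CPM) and ERH shRNAs (53.3 CPM). These 4 flags concern 1 clone and 2 neighbouring hairpins and are not independent. Among the knockdown changes of wild-type clones, mir-449b was highest in clone 52, with a log2 change of 0.13, and mir-449c was lowest in clone 67, with -2.10. The low mir-34a level of clone 34 was not flagged by this measure, because the other deletion clones are themselves spread widely on the linear scale.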

How the results depend on the processing

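Values are log2 fold changes unless called counts, and the cause of each shift was not tested. mir-449c kept its direction in every alternative run for each comparison, as did mir-34a for the knockdown in all clones (-0.74 to -0.09). Counts of miRNAs called for the knockdown in all, wild-type and deletion clones were 244, 192 and 65, and without the replicate block that pairs the arms of a clone they were 37, 94 and 13. No call of mir-34a or mir-34c was then left, with -0.63 (adjusted p = 0.435) and -0.50 (adjusted p = 0.538) in all clones, and mir-34b in deletion clones became 0.22. With ERH shRNA 2 alone the counts were 117, 20 and 19, and 35 for the deletion under control shRNAs (139 in the main analysis). A mean of at least 100 counts gave 148 and 124 for the knockdown in all and wild-type clones, and 76 for the deletion. Spike-in scaling gave 102 for the knockdown in deletion clones, total miRNA scaling 109 and single libraries 104. Single libraries gave 223 for the deletion under control shRNAs and 55 under ERH shRNAs, where DESeq2 called 8 and no filter 1. The interaction called 16 with DESeq2, 29 with total miRNA scaling, 19 without a filter, 29 with the mean of 100 counts, 52 with single libraries, 30 with shRNA 1 alone and 6 with the GC correction. Leaving out 1 clone gave 159 to 230, 112 to 197 and 30 to 119 calls for the 3 knockdown comparisons, 83 to 129 for the deletion under control shRNAs, 0 to 1 under ERH shRNAs and 0 to 35 for the interaction.

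Signs turned mainly with spike-in scaling: for the knockdown in all clones in mir-34b (0.081), mir-449a (0.16) and mir-449b (0.35), in wild-type clones in mir-34a (0.023), mir-34b (0.046), mir-34c (0.054), mir-449a (0.34) and mir-449b (0.34), and in deletion clones in mir-34b (0.14). For the deletion they turned in mir-34c (0.12), mir-449a (0.028) and, under ERH shRNAs, mir-34b (0.012), and for the interaction in mir-34a (-0.22), mir-34c (-0.27) and mir-449a (-0.34). Total miRNA scaling turned mir-449b (0.19 in all, 0.092 in wild-type clones), mir-449a in wild-type (0.070), mir-34b in deletion clones (0.12) and the interactions of mir-34a (-0.048), mir-34c (-0.093) and mir-449a (-0.17). shRNA 2 alone turned mir-34b (0.12 in all and 0.12 in deletion clones), mir-449b (0.18), the interaction of mir-34c (-0.0057), the ratio of mir-449b to mir-449a between genotypes with control shRNAs (0.28) and its interaction (-0.13), that of mir-449c to mir-449a under ERH shRNAs (-0.34) and that of the cluster to mir-34a (-0.11). shRNA 1 alone turned mir-449b in deletion clones (-0.090), the ratio of mir-449b to mir-449a (-0.054) and the interactions of mir-34a (-0.34) and mir-449a (-0.56). Interactions of mir-34c and mir-449a were -0.0048 and -0.085 without a filter and -0.025 and -0.097 with the mean of 100 counts, and that of mir-449a was -0.0038 with single libraries. Without the control shRNA 2 library of clone 30, mir-34b in deletion clones was 0.069 and the interaction of mir-449a -0.092.

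Leaving out 1 clone gave both signs for the interactions of mir-34a (-0.029 to 0.25), mir-34c (-0.14 to 0.35) and mir-449a (-0.25 to 0.19), for the deletion under ERH shRNAs in mir-34b (-1.99 to 0.33) and mir-34c (-1.86 to 0.15), and for the knockdown in deletion clones in mir-34b (-0.43 to 0.17) and mir-449b (-0.065 to 0.27). Ratios ranged from -0.17 to 1.55 for the cluster over mir-34a under the deletion with control shRNAs (the low value without clone 34), from -0.044 to 0.082 for the same ratio under knockdown, from -0.20 to 0.25 for mir-449b over mir-449a under ERH shRNAs and from -0.43 to -0.13 under control shRNAs, and from -0.078 to 0.20 for mir-449c over mir-449a under ERH shRNAs. mir-34b was not tested where a filter removed it. Its low counts, and those of mir-449b, limit what could be detected.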
